A study of Drosophila melanogaster with 4 samples.

Results

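Thioester-containing proteins are large secreted or membrane-associated proteins of the complement and alpha-2-macroglobulin family. Each gene symbol of the fly family named here (Tep1, Tep2, Tep3, Tep4 and Mcr) was looked up in the platform annotation of the array, and a probe set was taken where the symbol was its only one. Of these 5 genes, 2 had such a probe set, Tep3 and Tep4, with 1 probe set each, among 11982 genes with a probe set of their own in the series. Tep1, Tep2 and Mcr are not analysed here.

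Total RNA of whole bodies of Drosophila melanogaster larvae in the third instar, grown at 25 °C, was hybridized to 1-colour Affymetrix arrays. In the larvae overexpressing Gyc76C, the driver C564-Gal4 was combined with UAS-Gyc76C, which encodes a transmembrane receptor guanylate cyclase, and the labels place the overexpression in the fat body. In the GFP larvae, which serve as the control, the same driver was combined with UAS-GFP, so every sample carried C564-Gal4. Each genotype had 2 arrays, labelled as biological replicas, and how many larvae went into each is not stated. C564-Gal4 is known to act in blood cells and other tissues as well as in the fat body.

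In the complement-like system of insects, thioester proteins of the haemolymph bind to microbes and mark them for uptake by phagocytes. Tep1 to Tep4 have the reactive thioester that gives the family its name, and Mcr is an atypical member that is also a component of septate junctions. The fat body and blood cells are the main sources of Tep proteins in the larva. Tep3 has been tied to the uptake of Staphylococcus aureus by cultured fly cells, and Tep4 is widely used as a marker of blood cell progenitors in the larval lymph gland.

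The comparison asks whether these transcripts differ when Gyc76C is overexpressed. Neither measured Tep gene passed the threshold. Both had a higher mean signal in Gyc76C larvae, by 1.35-fold for Tep3 and 1.19-fold for Tep4, and neither difference could be told apart from 0 with 2 arrays a genotype. By limma, a probe set was called at an adjusted p under 0.05, and 2771 of 11261 tested probe sets (24.6%) were called, 11.3% higher and 13.3% lower in Gyc76C larvae. Of these calls 45.9% were thus higher, against 62.7% with each array centred on its median and 54.9% after quantile normalization. With only 2 members tested, a count of 0 does not set them apart from that background. At an unadjusted p under 0.05 the count was also 0 of 2.

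Tep3 had signals of 494 and 537 in Gyc76C larvae, against 536 and 269.9 in GFP larvae, as MAS5 signal on a linear scale. The groups overlapped, because GFP replicate 1 lay between the Gyc76C arrays and GFP replicate 2 was the 1 low array. The mean was 516 ± 30.5 in Gyc76C larvae and 403 ± 188 in GFP larvae (SD, n = 2 each). The log2 fold change was 0.44 with an SE of 0.31, a 95% interval of -0.31 to 1.18 and an adjusted p of 0.336 by limma. On the linear scale that interval runs from 0.807-fold to 2.27-fold, and so includes both no difference and a doubling. The standard error was larger than that of 71.0% of tested probe sets.

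The Tep3 value rested on the low GFP array. Without GFP replicate 1 the log2 fold change was 0.93 and passed the threshold (limma adjusted p = 0.00587), a 1.91-fold higher signal in Gyc76C larvae. Without GFP replicate 2 it was -0.058 (adjusted p = 0.835). The lone GFP array is assumed in these fits to vary as the Gyc76C arrays do.

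Tep4 was measured more evenly. Its signals were 3015 and 3345 in Gyc76C larvae, against 2489 and 2847 in GFP larvae. The lower Gyc76C array was above the higher GFP array, as it was for 26.9% of all tested probe sets, and 68.3% had groups that did not overlap in either direction. The mean was 3180.1 ± 233 in Gyc76C larvae and 2668 ± 253 in GFP larvae (SD, n = 2 each). The log2 fold change was 0.25 with an SE of 0.14, a 95% interval of -0.07 to 0.58 and an adjusted p of 0.217 by limma. The interval thus includes no difference and ends short of a doubling. The SE of Tep4 was larger than that of 10.2% of tested probe sets.

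**Figure D1:**
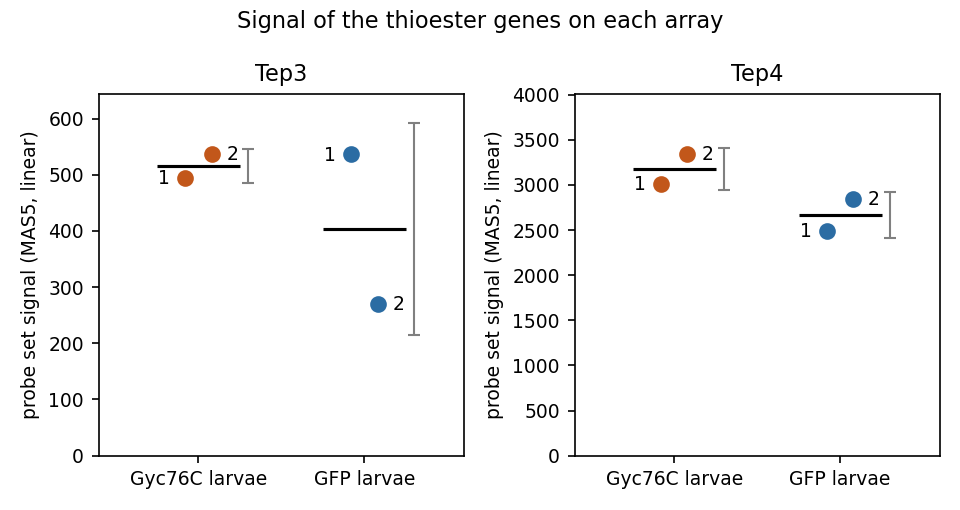
MAS5 signal (linear axis from 0) of Tep3 and Tep4 on each array, Gyc76C larvae at the left and GFP larvae at the right of each panel. Points are single arrays numbered by replicate, horizontal lines are means and grey bars are ± SD (n = 2 each). Tep3 has 1 low array, GFP replicate 2 at 269.9, and the Tep4 signals of the genotypes do not overlap.

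The sizes of these differences were ordinary for this comparison. Of all tested probe sets, 48.8% had a smaller absolute log2 fold change than Tep3 and 30.8% had a smaller one than Tep4. The median log2 fold change over all tested probe sets was -0.16. With each array centred on its median, Tep3 had 0.59 (limma adjusted p = 0.226) and Tep4 0.41 (adjusted p = 0.0733). After quantile normalization Tep3 had 0.56 and Tep4 0.18. Tep4 was positive under all 12 alternative settings run, with values of 0.16 to 0.41, and passed the threshold under 0 of them, with adjusted p of 0.0733 to 0.627. Tep3 was positive under 11 of 12 and passed under 1, the fit without GFP replicate 1.

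**Figure D2:**
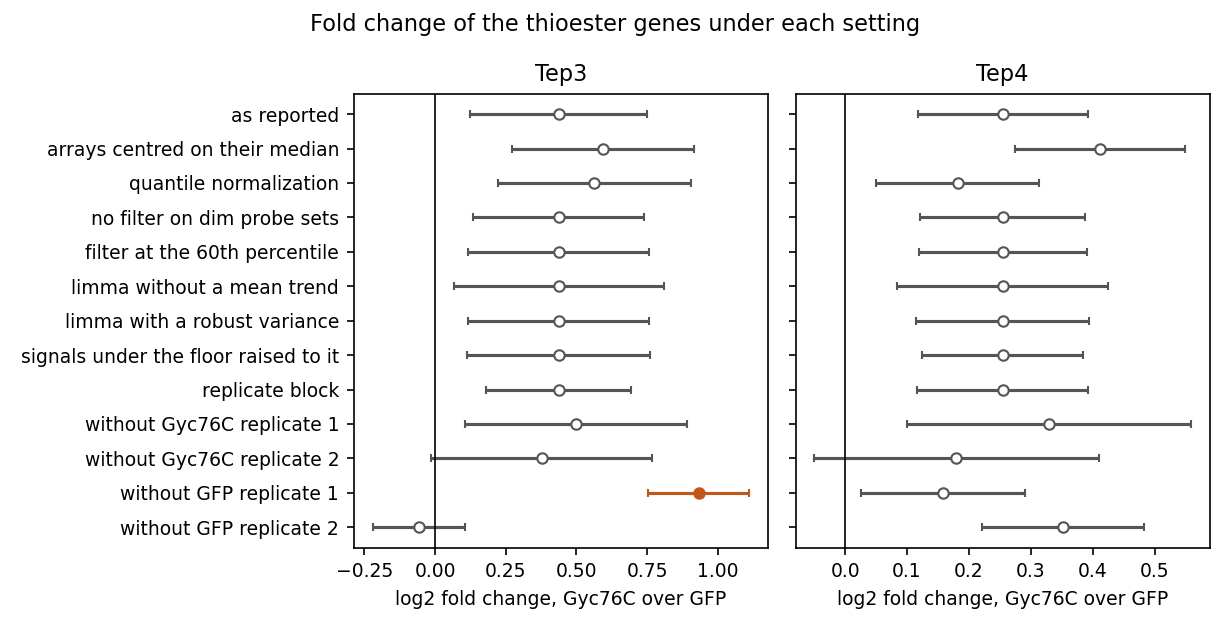
Log2 fold change (Gyc76C over GFP) of Tep3 and Tep4 in the reported fit and under 12 alternatives, with bars of ± 1 standard error. Filled orange points have a limma adjusted p under 0.05. Tep3 runs from -0.058 to 0.93 depending on which GFP array is left out, whereas Tep4 stays between 0.16 and 0.41.

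The log2 fold change of Tep3 exceeded that of Tep4 by 0.18. This difference was not tested, and it is smaller than the SE of the Tep3 value.

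All 5 family genes lie on chromosome arm 2L in the RefSeq annotation of assembly Release 6. Tep2 and Tep3 are next to each other. The nearest gene with a probe set of its own on the other side of Tep2 is CG7025, which had 791 and 812 in Gyc76C larvae, against 796 and 525.0 in GFP larvae. CG7025 thus had its low value on the same array as Tep3, GFP replicate 2 (log2 fold change 0.31, SE 0.21, limma adjusted p = 0.321). Whether this is particular to the locus was not tested, and the share of all probe sets lowest there was not counted. The marker genes atilla (1828) and sls (302), far from a full count, were also lowest on that array. For sls, GFP replicate 1 was low too, at 603 against 1456 and 1804 in Gyc76C larvae. Ntl, the nearest such gene on the other side of Tep3, did not share the low value on GFP replicate 2. It had 45.8 and 39.0 in Gyc76C larvae and 69.9 and 69.3 in GFP larvae (log2 fold change -0.72, limma adjusted p = 0.291).

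Tep4 lies near Tep5Psi, a family pseudogene outside the list of members. Tep5Psi was dim, with 54.1 and 53.8 in Gyc76C larvae and 28.6 and 48.0 in GFP larvae. Its mean of 46.1 fell just under the level of 46.3 that a probe set needed to be tested. In a fit without that filter its log2 fold change was 0.54 with an SE of 0.59 (limma adjusted p = 0.627). CG10337, the neighbour of Tep4 on the other side, had 190.5 and 218 in Gyc76C larvae and 230.1 and 259 in GFP larvae, a log2 fold change of -0.26 (adjusted p = 0.37).

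The genes whose 4 array values were most like those of each member were found by the Euclidean distance between log2 signals, each centred on its own mean over the 4 arrays. For Tep3 these were Tsp42En, CG31323 and Alg-2, at distances of 0.07, 0.09 and 0.11. All 3 had their low value on GFP replicate 2, as the choice by pattern requires, and their log2 fold changes of 0.39, 0.37 and 0.37 did not pass the threshold. For Tep4 they were bbg, eIF2beta and Tango1, at distances of 0.03, 0.04 and 0.04, with log2 fold changes of 0.28, 0.22 and 0.23, also not past it. Over 4 arrays and 11261 probe sets such near matches are a description of the pattern only.

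**Figure D3:**
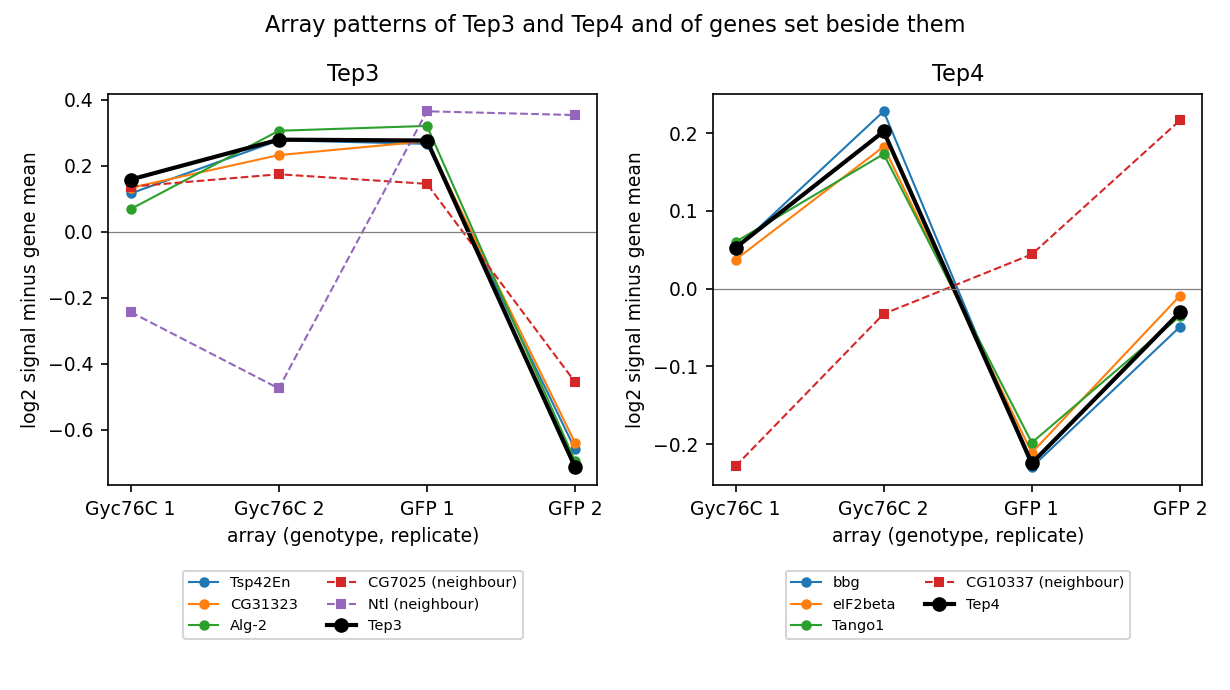
Log2 signal minus the gene's own mean over the 4 arrays, for Tep3 (left) and Tep4 (right) in black, the 3 most similar genes as circles and solid lines, and neighbouring genes as squares and dashed lines. Lines only join the points of 1 gene. Tep3, its similar genes and CG7025 are low on GFP replicate 2, and Tep4 and its similar genes are higher on both Gyc76C arrays than on either GFP array.

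Phagocytic receptors and other opsonins act beside the Tep proteins in the uptake of microbes, and several of these genes did change. Both classes form 1 list, called the opsonin list for short, so the opsonin genes counted here include receptor genes. Of 15 tested genes in that list 1 rose and 5 fell, while of all genes tested 25.7% were called, 11.6% as higher and 14% as lower. The median log2 fold change of the list was -0.08, against -0.17 over all genes tested. NimB2, a secreted Nimrod protein gene, rose 2.30-fold, to 6062 ± 122 in Gyc76C larvae against 2642 ± 322 in GFP larvae (limma adjusted p = 0.00238). NimC2, a Nimrod receptor gene, was lower at 393 and 559 in Gyc76C larvae than at 1636 and 3989 in GFP larvae (log2 fold change -2.45 with an SE of 0.40, adjusted p = 0.00772). The scavenger receptor gene crq fell by 1.38 on the log2 scale (SE 0.14) and NimB5 by 0.89 (SE 0.15). NimB3 at -0.22 and drpr, the engulfment receptor Draper, at -0.23 did not pass the threshold. Without Gyc76C replicate 1, 2 members fell, and NimB5 was not called (adjusted p = 0.0505). Without Gyc76C replicate 2, 3 members fell, and NimB5 was again not called (0.0552), while without GFP replicate 1, 2 members rose. The other genes that fell were eater, a phagocytic receptor gene, and NimB4, named after its values were seen. The call of eater ended without Gyc76C replicate 1 (adjusted p = 0.114), and that of NimB4 without Gyc76C replicate 1 (0.297), Gyc76C replicate 2 (0.119) or GFP replicate 1 (0.0711), with centred arrays (0.137) and after quantile normalization (0.0971).

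**Figure D4:**
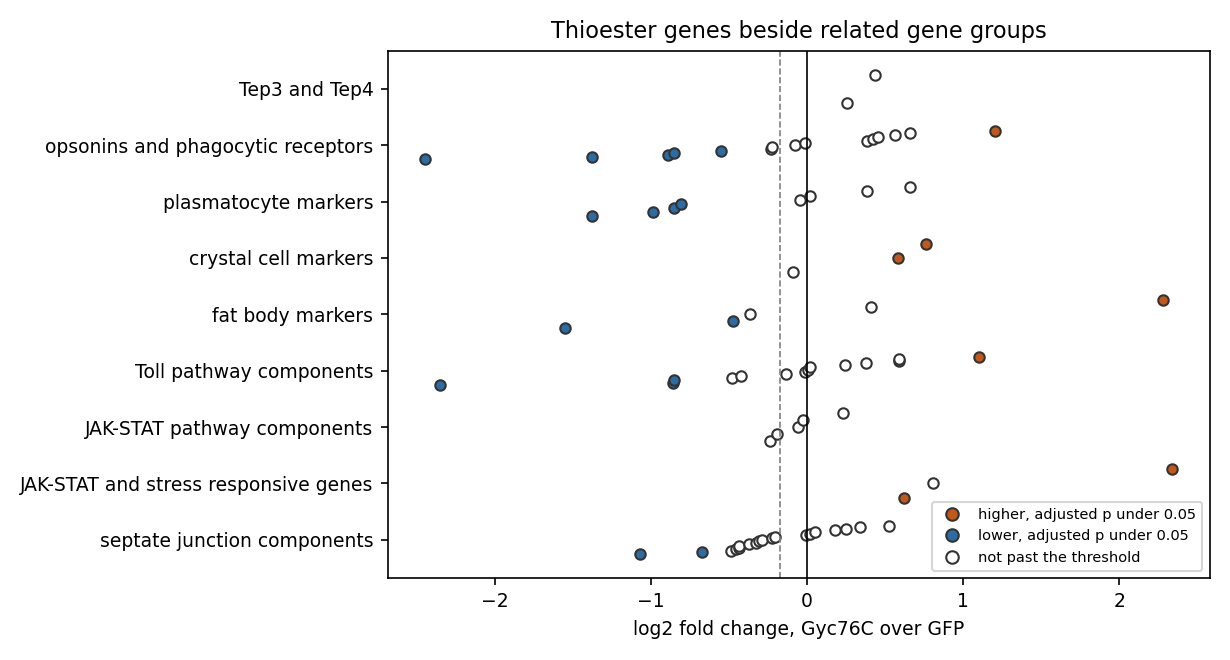
Log2 fold change (Gyc76C over GFP) of Tep3 and Tep4 and of each tested gene in 8 related groups, 1 point a gene at its brightest probe set. Orange points are higher and blue points lower in Gyc76C larvae at a limma adjusted p under 0.05, open points did not pass it, and the dashed line is the median of all genes tested, -0.17. Tep3 and Tep4 lie among the open points, and the list of opsonins and phagocytic receptors has 1 orange and 5 blue points.

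Markers of blood cells and of the fat body changed in both directions. In a whole larva, fewer cells of a type and less RNA per cell cannot be told apart. Of 8 plasmatocyte markers (phagocytic blood cells), 4 of which also belong to the opsonin list, 0 rose and 4 fell by limma, against 11.6% and 14% of all genes tested, and their summed signal was 4200.3 to 4402 in Gyc76C larvae against 5521 to 6086 in GFP larvae. He (hemese) fell by 0.99 on the log2 scale (SE 0.14, limma adjusted p = 0.00494), whereas Hml (0.02) and Pxn (-0.05) did not pass the threshold. NimC1 (0.38) and Sr-CI (0.66), named after their values were seen, were higher in Gyc76C larvae and did not pass it either. The largest drops within the sum were those of He and crq. Their means were 674 and 368 in Gyc76C larvae against 1337 and 956 in GFP larvae. At an unadjusted p under 0.05, 1 of the 8 was higher, and 2 fell without Gyc76C replicate 1 or with no mean trend in the variance. The crystal cell genes PPO2 and PPO1, which encode prophenoloxidases, rose by a log2 fold change of 0.76 and 0.58. The summed signal of the 4 crystal cell markers, nearly all of it from these prophenoloxidases, was 15115 to 15844 in Gyc76C larvae against 8458 to 11414 in GFP larvae. The marker peb had -0.09 and was not called, and lz was too dim to be tested, with 25.1 and 39.9 in Gyc76C larvae against 64.7 and 49.2 in GFP larvae. Neither prophenoloxidase call held without Gyc76C replicate 1 (adjusted p = 0.11 for PPO2 and 0.186 for PPO1) or Gyc76C replicate 2 (0.0537 and 0.122), nor did that of PPO1 without GFP replicate 2 (0.0892). Of 4 lamellocyte markers 2 were tested and 0 called by limma, also 0 at an unadjusted p under 0.05. They were atilla, with 2270 and 2466 in Gyc76C larvae against 3634 and 1828 in GFP larvae, and mthl4, with 251 and 322 against 267 and 219.8, while PPO3 and ItgaPS4 were under 46.3 on all 4 arrays.

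Of 5 tested fat body markers 1 rose and 2 fell, against 11.6% and 14% of all genes tested. Their summed signal, most of it from the bright genes Lsp2, Fbp2, Fbp1 and apolpp, was 91937 to 109000.0 in Gyc76C larvae against 133382 to 136398 in GFP larvae. The largest drop within that sum was that of Fbp1, with a mean of 12670 in Gyc76C larvae against 36644 in GFP larvae. The means of apolpp and Apoltp were higher in Gyc76C larvae. Apoltp, a lipid transfer particle gene, rose 4.86-fold (limma adjusted p = 0.000339), and Fbp1, the receptor gene for larval storage proteins, fell by 1.55 on the log2 scale (adjusted p = 0.00299). Fbp2 fell by 0.48 and only just passed (adjusted p = 0.0499). The storage protein gene Lsp2 had -0.37 and the lipophorin gene apolpp 0.41, and neither passed. The part of these cell and tissue markers in the Tep3 and Tep4 values was not tested. Leaving out any 1 array left 1 fat body marker that fell, since Fbp2 then had adjusted p of 0.0609 to 0.135, and with centred arrays it had 0.171.

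Tep genes are known to respond to JAK-STAT and Toll signalling after infection. Of 5 tested JAK-STAT pathway components 0 were called by limma, with 0 at an unadjusted p under 0.05 and 0 with no mean trend, and Stat92E, the transcription factor, had a log2 fold change of -0.19 (SE 0.13). Of 3 tested genes responsive to JAK-STAT or stress 2 rose, against 11.6% of all genes tested, and 3 others with a probe set were too dim to be tested. TotC, a Turandot stress peptide gene, had 330.1 and 150.3 in Gyc76C larvae, against 35.5 and 54.5 in GFP larvae (log2 fold change 2.34 with an SE of 0.46, limma adjusted p = 0.014). Its GFP mean was 45.0, under the level of 46.3, so TotC was tested only through its signal in Gyc76C larvae. With the low GFP signal raised to that level the log2 fold change was 2.15 (SE 0.41, limma adjusted p = 0.0164). At the 60th percentile filter TotC was not tested. The virus-responsive gene vir-1 had a log2 fold change of 0.62 (adjusted p = 0.0243). Neither was called when Gyc76C replicate 1 was left out (adjusted p = 0.0715 and 0.212), and vir-1 also without Gyc76C replicate 2 (0.0976). Without GFP replicate 1, 3 of this list rose.

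Of 14 tested Toll pathway components 2 rose and 3 fell, against 11.6% and 14% of all genes tested, and the list median was -0.0033 against -0.17. SPE, which cleaves the precursor of the ligand Spätzle, rose 2.15-fold (adjusted p = 0.00584 by limma), and Pli, the Pellino gene, fell by 2.35 on the log2 scale (adjusted p = 0.00292). The inhibitor gene cact had 0.38 (adjusted p = 0.102). Without Gyc76C replicate 1, 1 rose and 1 fell, without Gyc76C replicate 2, 1 rose, and without GFP replicate 2, 3 rose. The other genes called were GNBP3 and pll, which fell, and the receptor gene Tl, which rose and was named after its values were seen. Calls ended without Gyc76C replicate 1 for GNBP3 (adjusted p = 0.0635), pll (0.114) and Tl (0.177), without Gyc76C replicate 2 for pll (0.0746) and Tl (0.132), and without GFP replicate 2 for pll (0.0919).

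Septate junction genes are partners of Mcr, for which the platform annotation gave no probe set. Of 19 tested, 0 rose and 2 fell by limma, against 11.6% and 14% of all genes tested, and at an unadjusted p under 0.05 the numbers were 2 and 6. The list median was -0.29, against -0.17 over all genes tested. The members that fell were crok, a Ly6 family protein gene, by 1.07 on the log2 scale (SE 0.15, adjusted p = 0.00481), and cold, of the same family, by 0.68 (adjusted p = 0.017). Lac had -0.49 and did not pass. The number that fell was 7 without GFP replicate 1 and 1 without either Gyc76C array, and cold was not called without Gyc76C replicate 1 (0.0682) or replicate 2 (0.135).

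The overexpressed gene checks the labels. Its brightest probe set, annotated to Gyc76C and CG42637 together, had 16050 and 20993 in Gyc76C larvae against 1047 and 928 in GFP larvae (log2 fold change 4.22, limma adjusted p = 5.79e-05). Both other probe sets with that annotation were dim and ran the other way. One had 9.42 and 30.6 in Gyc76C larvae against 91.9 and 64.9 in GFP larvae (log2 fold change -2.19, unadjusted p = 0.0326, adjusted p = 0.0951). The other, too dim to be tested, had 2.43 and 4.69 against 17.0 and 14.6. Where the probe sets lie relative to the transgene is not known here, so the check rests on the brightest 1. All markers with a probe set passed the filter for muscle (6), midgut (7), epidermis (4) and salivary gland (11), as did 2 of 4 neuronal markers. Of the salivary gland markers 10 fell (list median log2 fold change -4.15), while 4 muscle markers (median 0.94), 2 epidermis markers (median 0.43) and 1 midgut marker (median -0.031) rose. Leaving out Gyc76C replicate 1 left 0 epidermis markers that rose, and leaving out either the other Gyc76C array or GFP replicate 2 left 1. Hybridization controls averaged 8.86 and 9.49 on the log2 scale on the Gyc76C arrays, against 9.78 and 9.82 on the GFP arrays, and the 3′ to 5′ signal ratio of eIF-4a, a sign of RNA quality, was 3.12 and 3.61 against 4.04 and 4.06. The part of these tissue markers and controls in the Tep3 and Tep4 values was not tested.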

How the data were processed

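The authors deposited 1 probe set signal (intensity, linear scale) per array, made with MAS5 per the submitters' processing notes, with no version or genome build given in the sources used here. The 2% trimmed mean of every array was 500.0, so the authors' values had been scaled. A MAS5 signal exists even where nothing is detected, and no detection call was used, so dim probe sets are uncertain.

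Control probe sets (183 of 18952) were left out and log2 was taken without a pseudocount. Probe sets with a mean signal at or above the 40th percentile (46.3) were tested, 11261 in all, and both Tep probe sets passed with either genotype's mean. Genotypes were compared with limma 3.58.1 in R 4.3.3 (lmFit, eBayes with a mean trend, 2 residual and 4.64 prior degrees of freedom), two-sided, with Benjamini-Hochberg adjustment over all probe sets tested. The fit was tested on simulated data. In lists, each gene was its brightest probe set, and no set test was run. Of the non-control probe sets, 13647 had 1 symbol, 402 several and 4720 none. Symbols came from the platform annotation, and 13544 of the probe sets with 1 symbol had an entrez number in the RefSeq table.

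Named genes are the members, the overexpressed gene, up to 4 called and 2 uncalled genes of each list, the nearest gene with a probe set on each side of a measured member, and the 3 genes most alike. Members and lists were chosen with earlier results of these data known. The lists came from general knowledge. The alternatives were other normalizations, filters, variance models, a signal floor, a replicate block and leaving out each array.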

Additional observations from a re-analysis of the deposited data

How the results depend on the processing

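Tep4 kept its direction and stayed short of the threshold under all 12 alternatives, and Tep3 under 10 of 12. Leaving out 1 array moved the log2 fold change of Tep3 between -0.058 (without GFP replicate 2) and 0.93 (without GFP replicate 1), and the number of called probe sets between 1204 and 3350, against 2771 as reported. With no mean trend in the variance 1241 were called. The genes chosen for their likeness to Tep3 had ranges that follow from that choice, from -0.070 to 0.86 for Tsp42En, -0.092 to 0.82 for CG31323 and -0.13 to 0.88 for Alg-2.

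Over the 4 fits that leave out 1 array, 1 to 2 opsonin genes rose and 2 to 5 fell, 0 to 3 JAK-STAT or stress responsive genes rose, 1 to 3 Toll components rose and 1 to 3 fell, 0 to 1 septate junction genes rose and 1 to 7 fell, 0 to 1 plasmatocyte markers rose and 2 to 4 fell, 0 to 2 crystal cell markers and 0 to 3 epidermis markers rose, and 1 fat body marker fell in each. Hml moved between -0.16 and 0.20, Pxn between -0.12 and 0.023, peb between -0.37 and 0.20 and atilla between -0.62 and 0.37. With no mean trend, 2 opsonin genes fell, 0 JAK-STAT or stress responsive genes rose, 1 Toll component rose and 1 fell, 1 septate junction gene and 2 plasmatocyte markers fell, 0 crystal cell, 0 epidermis and 2 muscle markers rose and 1 fat body marker fell, and NimC2 (adjusted p = 0.054), TotC (0.0527), vir-1 (0.0762), cold (0.0738), PPO2 (0.0992), PPO1 (0.133), eater (0.0583), NimB4 (0.123), GNBP3 (0.0567), pll (0.0684), Tl (0.0781) and Fbp2 (0.109) were not called. With centred arrays, 2 opsonin genes, 1 septate junction gene and 1 plasmatocyte marker rose, 1 fat body marker fell, and Pxn had 0.11, peb 0.070 and atilla 0.034. After quantile normalization, 1 crystal cell, 1 epidermis, 2 midgut and 2 fat body markers rose, Pxn had 0.033 and peb 0.063. With no filter 1 epidermis marker rose. With no filter, and with signals under the floor of 46.3 raised to it, 1 crystal cell marker rose and 1 fat body marker fell. Septate junction genes that fell numbered 4 with that floor, with a robust variance, with the replicate block and with the filter at the 60th percentile, where 1 JAK-STAT or stress responsive gene rose. The cause of these changes was not tested.

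Deviations of same-numbered arrays from their genotype means correlated at 0.04 over the tested probe sets. With 2 arrays a genotype, this correlation cannot show whether the arrays were prepared in pairs, which the labels do not state. With the replicate number as a block, Tep3 had an adjusted p of 0.24 and Tep4 of 0.208, both at the same log2 fold change (0.44 and 0.25), and 3101 probe sets were called, while 1 septate junction gene rose and 1 fat body marker fell. With 2 arrays a genotype, the precision is limited by their number, and the median SE of a log2 fold change was 0.21.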
